A study of Homo sapiens with 2 samples.

Results

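The 10 genes described here are members of the human globin family: HBA1, HBA2, HBZ and HBQ1 of the alpha cluster, HBB, HBD, HBG1, HBG2 and HBE1 of the beta cluster, and CYGB, which encodes cytoglobin. They were taken by symbol from 24991 genes of the table, 1 row each, and selected on their measured FPKM in these libraries, where globin RNA had been seen at low levels. Their levels and their differences between the libraries are therefore a description and carry no test. RNA was sequenced from PLC/PRF/5, an established human hepatocellular carcinoma line, grown in DMEM with fetal bovine serum and kept under hypoxia. 1 library came from cells with an empty vector (EV) and 1 from cells overexpressing the transcription factor NFX1 (NFX1_OE), so both groups share the line and the hypoxia. The labels state no duration or oxygen level and do not say whether the cells were a pool or a clone. Each group has 1 library and no replicate, so each difference below is between these libraries and not between the conditions.

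Globins carry heme and bind oxygen. Hemoglobin of red cells pairs alpha-type with beta-type chains. The genes lie in separate clusters, in which embryonic, fetal and adult members follow each other and are switched on in turn by enhancers that erythroid transcription factors occupy. The fetal liver is a site of red cell formation, but hepatocytes themselves are not red cell precursors. Cytoglobin is found outside the blood, in the liver mainly in stellate cells, where it is linked to nitric oxide and redox chemistry.

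Values are FPKM, fragments scaled to transcript length and library size, which allows comparison between genes. Such comparison is less sure for short transcripts such as those of HBA1, HBA2 and HBQ1, whose FPKM depends on an effective length. Change is the log2 ratio of FPKM + 1, NFX1 over vector, which understates differences of low genes. Fragment numbers are estimates from the steps between low FPKM values. These gave about 33.0 M fragments with the vector and 37.9 M with NFX1. The 95% exact intervals made from them cover counting error only. NFX1 itself had 4.21 FPKM with the vector and 56.0 FPKM with NFX1, in the direction of the labels. Of 15 hepatocyte and liver epithelial markers all had at least 1 FPKM in a library, led by SERPINA1, the alpha-1 antitrypsin gene, at 5935 and 6807 FPKM in the vector and NFX1 libraries, while ALB, the albumin gene, had only 0.776 and 1.06 FPKM.

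Of the 10 globin genes, 3 had at least 1 FPKM in a library, 4 lay above 0 but under 1 FPKM, and 3 were listed at 0 in both libraries. All of the 3 with at least 1 FPKM belong to the alpha cluster, at the end of chromosome 16. Of the beta cluster on chromosome 11, HBB and HBG2 were under 1 FPKM and the others listed at 0. The table holds no counts, and a value listed at 0 can be an estimate that failed, so here and below it does not show that RNA was absent. In RNA from a whole culture, more cells with globin RNA and more globin RNA per cell cannot be told apart.

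HBA1 and HBA2 encode the same alpha chain of adult hemoglobin. HBA1 (XLOC_009224, hg19 chromosome 16 from 226650 to 227521) was at 8.72 FPKM with the vector and 13.1 FPKM with NFX1, an estimated 98 and 169 fragments. It was the globin gene with the highest level in both libraries, above 78.2% of all genes by the mean of both. Its NFX1 value was 1.502 times its vector value (interval 1.16 to 1.94), a change of 0.54. HBA2 (XLOC_009223, hg19 chromosome 16 from 222846 to 223709) had 3.63 and 6.03 FPKM, an estimated 41 and 77 fragments. The ratio was 1.66 (interval 1.105 to 2.45) and the change 0.60, the greatest of the 3 alpha-cluster genes, although the intervals of the 3 ratios overlap. The split between these genes is uncertain, because 81.6% of the 50-base windows in the HBA1 transcript also occur unchanged in the HBA2 transcript. Summed over both, alpha chain RNA was 12.4 FPKM with the vector and 19.1 FPKM with NFX1, 1.55 times as much (interval 1.25 to 1.92), a change of 0.59.

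HBQ1, the theta gene, is the last globin gene of the alpha cluster, and its product is not known as a part of any major hemoglobin. HBQ1 (XLOC_009225, hg19 chromosome 16 from 230333 to 231178) had 7.13 FPKM with the vector and 10.7 FPKM with NFX1, an estimated 70 and 121 fragments. Its ratio of 1.49 (interval 1.11 to 2.05) and its change of 0.52 were close to those of HBA1. Theta RNA was thus nearly as abundant as that of HBA1: the HBA1 level was 1.22 times the HBQ1 level in the vector library (interval 0.897 to 1.698) and 1.23 times in the NFX1 library (interval 0.967 to 1.56). HBA1 and HBQ1 were not separated by counting error in either library. HBQ1 was above HBA2 in both, by 1.97 times in the vector library (interval 1.298 to 2.92) and by 1.77 times in the NFX1 library (interval 1.33 to 2.403). These intervals leave out the uncertain split of fragments between HBA1 and HBA2. The rank of HBQ1 against either gene therefore depends on how that split was made.

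HBZ encodes the zeta chain, the embryonic counterpart of alpha. HBZ (XLOC_009221, hg19 chromosome 16 from 202854 to 204504) was listed at 0 in the vector library and had 0.302 FPKM in the NFX1 library, about 6 fragments with the transcript length used here. No ratio is given against a value listed at 0.

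**Figure D1:**
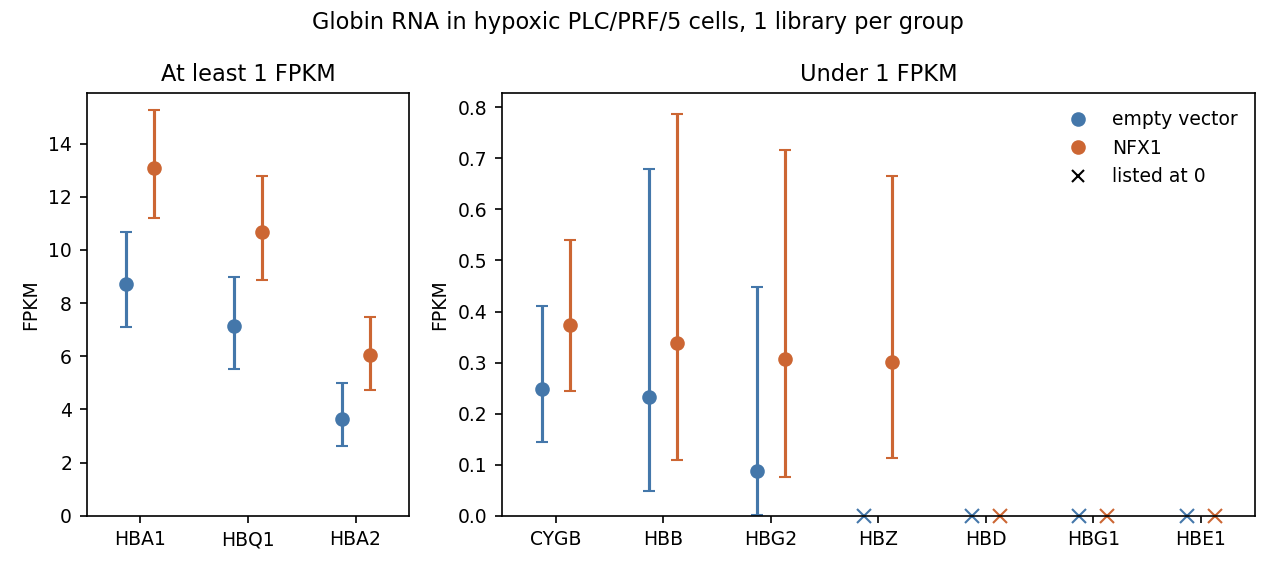
FPKM of the 10 globin genes in the empty vector library (blue) and the NFX1 library (orange), genes with at least 1 FPKM in a library on the left and the others on the right, each panel on its own linear axis from 0. Bars are 95% exact Poisson intervals from estimated fragments (counting error only) and crosses mark values listed at 0. HBA1, HBQ1 and HBA2 lie between 3.63 and 13.1 FPKM, and CYGB, HBB, HBG2 and HBZ below 0.4 FPKM with wide intervals.

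In the beta cluster, HBB, which encodes the adult beta chain, had 0.233 FPKM with the vector and 0.338 FPKM with NFX1, an estimated 3 and 5 fragments (XLOC_004667, hg19 chromosome 11 from 5246696 to 5248301). HBG2, a gene of the fetal gamma chain, had 0.0884 and 0.308 FPKM, an estimated 1 and 4 fragments (XLOC_004672, hg19 chromosome 11 from 5274421 to 5276011). The ratios of 1.45 for HBB (interval 0.282 to 9.34) and 3.48 for HBG2 (interval 0.344 to 171) show that no difference was detectable at this depth. HBG1, which makes nearly the same gamma chain, was listed at 0 in both libraries, as were HBD, the gene of the minor adult delta chain, and HBE1, the gene of the embryonic epsilon chain. As HBG2 shares 64.8% of its 50-base windows with HBG1, the few fragments could belong to either.

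Alpha and beta chain RNA were far from equal. HBA1 and HBA2 together had 38.5 times the FPKM of HBB and HBG2 together in the vector library and 29.7 times in the NFX1 library. HBA2 alone, the lowest of the 3 genes with at least 1 FPKM, was 15.6 times the HBB level in the vector library (interval 5.03 to 79.6) and 17.9 times in the NFX1 library (interval 7.29 to 56.3).

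Of the 10 genes, only HBD had an entry in the RefSeq promoter sequences used (build GRCh38.p14, 250 bases before to 50 after the start). It lies at chr11:5234434-5234733 on the minus strand and is printed as the promoter of a beta-cluster gene listed at 0 in both libraries. Beside it stands HBM, the mu gene, which is not one of the 10, lies between HBZ and HBA2 and was also listed at 0 in both (chr16:165728-166027, plus strand). Capitals mark matches on either strand to motifs of red cell and hypoxia-regulated promoters. TATAAA and the variant CATAAA stand for the TATA box. CCAAT and the variant CCAAC stand for the next box upstream. CACCC is read by KLF factors and GATAA by GATA factors. ACGTG as well as GCGTG are core letters bound by hypoxia-inducible factors. No matches overlap.
HBD: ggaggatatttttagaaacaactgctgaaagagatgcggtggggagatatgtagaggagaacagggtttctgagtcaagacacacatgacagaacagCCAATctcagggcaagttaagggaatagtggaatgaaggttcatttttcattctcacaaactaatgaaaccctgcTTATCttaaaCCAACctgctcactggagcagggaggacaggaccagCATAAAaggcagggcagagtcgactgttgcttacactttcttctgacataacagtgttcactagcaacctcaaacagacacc
HBM: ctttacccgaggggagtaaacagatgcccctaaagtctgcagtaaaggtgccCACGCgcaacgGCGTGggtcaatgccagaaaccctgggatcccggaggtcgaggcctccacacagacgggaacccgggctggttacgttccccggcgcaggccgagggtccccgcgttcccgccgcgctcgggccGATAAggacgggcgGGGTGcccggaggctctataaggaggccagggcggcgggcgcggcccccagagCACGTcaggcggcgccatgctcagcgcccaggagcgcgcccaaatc

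The windows differ in base composition. That of HBD has 44.7% GC and 2 CpG pairs, and that of HBM 69.3% GC and 33 CpG pairs, against a median of 14 CpG pairs over 35116 promoters. Fewer CpG pairs than in HBD were found in 10.97% of those promoters, and fewer than in HBM in 82.8%. Both windows hold GATAA, the core letters that GATA factors read, as do 22.7% of all promoters. HBD has CATAAA, held by 10.6% of promoters, CCAAT, held by 34.6%, and CCAAC, held by 38.1%. HBM has CACCC, held by 59.9% of promoters, ACGTG, held by 21.4%, and GCGTG, held by 36.5%. TATAAA, held by 11.5%, is in neither window. HBM holds the near match tataag, which was not searched for, so the marks do not show that it lacks a TATA box. The marked matches describe letters and show no binding.

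CYGB (XLOC_011710, hg19 chromosome 17 from 74523430 to 74547211, a locus it shares with PRCD in the table) had 0.248 FPKM with the vector and 0.374 FPKM with NFX1. That is an estimated 16 and 27 fragments, and the ratio of 1.51 (interval 0.763 to 2.92) includes 1. Its level did not differ from that of HBB beyond counting error in either library, at 1.06 times in the vector library (interval 0.311 to 5.81) and 1.11 times in the NFX1 library (interval 0.417 to 3.65). Of 12 markers of stellate cells and fibroblasts, 11 had under 1 FPKM in both libraries. The sum over all 12, NGFR included, was 2.18 FPKM with the vector and 2.28 FPKM with NFX1. ACTA2, the smooth muscle actin gene, was listed at 0 in both, LRAT, which esterifies retinol in stellate cells, had 0.0245 and 0.0213 FPKM, and NGFR was the highest at 1.199 and 1.01 FPKM. Among other globins, MB, the myoglobin gene, had 0.306 and 0.186 FPKM, NGB, the neuroglobin gene, was listed at 0 in the vector library and had 0.0297 FPKM in the NFX1 library, and ADGB, the androglobin gene, was listed at 0 in both.

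All 7 globin genes above 0 in a library had the higher value in the NFX1 library. Of all genes, 49.8% of those above 0 in a library, 52% of the 11182 with at least 1 FPKM and 45.7% of those above 0 but under 1 FPKM were higher there. On the FPKM + 1 scale, HBA2 alone of the 3 genes with at least 1 FPKM was at least 1.5-fold higher, as were 0.42% of the 11182 genes, and none was 1.5-fold lower, as were 0.215%. A greater change than that of HBA1 was found in 63 genes, than that of HBA2 in 41 and than that of HBQ1 in 73. The authors' deposited table gives a test for 7 of the 10 genes and marks none as significant. Of all 14994 rows with a test, it marks only 18. Its log2 fold changes (the authors' deposited table) were 0.59 for HBA1 (p = 0.0785), 0.73 for HBA2 (p = 0.0928) and 0.58 for HBQ1 (p = 0.0825). Among these 7 globin genes, the smallest p-value in the authors' deposited table was that of HBZ (p = 0.0297). Its fold change is infinite because of the vector value of 0. CYGB had 0.59 (p = 0.386), HBG2 1.80 (p = 0.418) and HBB 0.54 (p = 0.737) in the authors' deposited table. The q-value of each of the 7 was 0.999 in the authors' deposited table. With single libraries such p-values hold no information on how cultures vary.

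The 3 expressed alpha-cluster genes are GC-rich, and changes between these libraries were higher at higher GC content. The transcripts of HBA1, HBA2 and HBQ1 have 64.5%, 64.4% and 68.8% GC, all in the top class when genes are split by GC content into 5 classes of equal size, which starts at 59.3%. The median change was -0.11 in the lowest class and 0.20 in the highest. GC content, transcript length and level together took 42.0% of the variance of the change. That share covers only those of 10967 genes that differed by less than 2-fold. With the trend on GC content, length and level subtracted, the changes were 0.33 for HBA1, 0.40 for HBA2 and 0.30 for HBQ1. No globin gene then passed 1.5-fold. All 3 were still above 0, but no counting interval was made for them, so they are not shown to differ from 0. The change of HBA1 and HBA2 summed was then 0.39.

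**Figure D2:**
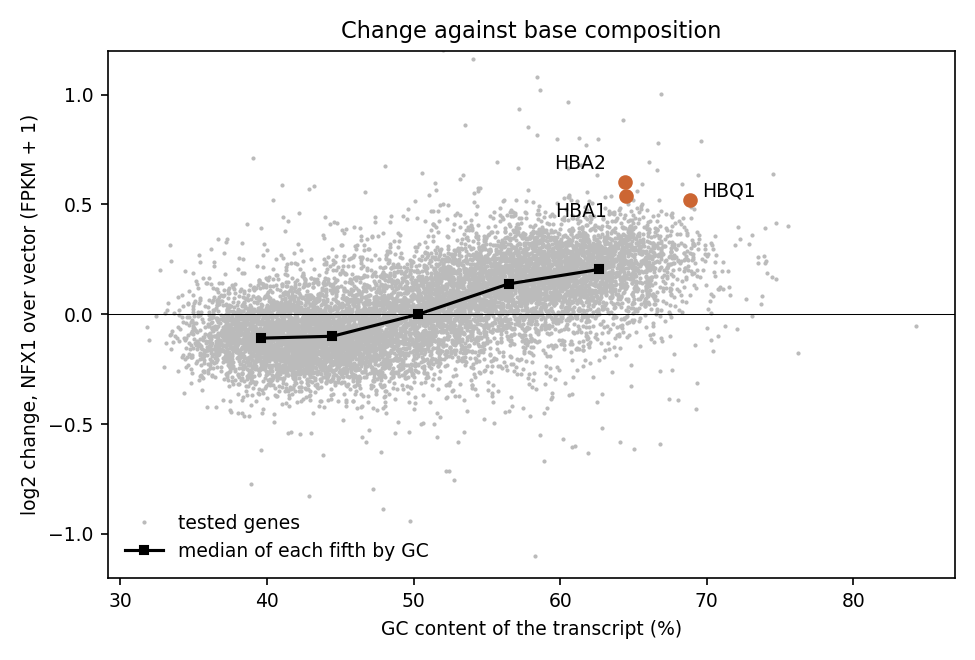
Log2 change (FPKM + 1, NFX1 over vector) against the GC content of the transcript for 10959 genes (grey), with 8 others beyond the axis. Black squares are the median change in each of the 5 classes by GC content, from -0.11 to 0.20, and HBA1, HBA2 and HBQ1 (orange) lie above the square of the highest class, at 0.54, 0.60 and 0.52.

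Other genes of similar level give the background for such changes. A change of at least that of HBQ1 was found in 0.551% of 5810 other genes with a mean of 2.5 to 25 FPKM. Among the 995 of them in the highest GC class the share was 1.61%, and among the 59 with a transcript under 1000 bp as well it was 6.78%, or 4 genes. The median change of those 59 genes was 0.16. These limits were set after the globin values had been seen.

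The genes around the alpha cluster had smaller changes. Within 200 kb of HBA1, 11 other genes had at least 1 FPKM in a library. All 11 had the higher value in the NFX1 library, as did 52% of the 11182 genes with at least 1 FPKM. The median change of the 11 was 0.18, against 0.01 over all 11182 genes. MPG, a DNA glycosylase gene, had 101 FPKM with the vector and 128 FPKM with NFX1, a ratio of 1.26 (interval 1.21 to 1.32) and the greatest change of the 11, at 0.34. NPRL3, which encodes an inhibitor of amino acid signalling to mTORC1 and whose introns hold the alpha-globin enhancers, had 29.3 and 34.8 FPKM, a ratio of 1.19 (interval 1.13 to 1.25). MPG and NPRL3 share a locus in the table.

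LUC7L, the nearest expressed gene on the other side of the cluster, encodes a splicing factor and had 13.8 and 14.1 FPKM, a change of 0.04. RHBDF1, an inactive rhomboid, had a change of 0.03 and ARHGDIG 0.08. POLR3K, a subunit of RNA polymerase III, had 0.11, AXIN1, a scaffold of Wnt signalling, 0.17, TMEM8A 0.18 and ITFG3 0.20. SNRNP25, a protein of the minor spliceosome, had 0.24 and MRPL28, a mitochondrial ribosomal protein, 0.28. With the trend subtracted the 11 neighbours had a median of 0.02, from -0.15 to 0.15, below the values of 0.30 to 0.40 for the globin genes. This difference from the neighbours has no test across samples. Before subtraction, the counting intervals of the HBA1, HBA2 and HBQ1 ratios all include the ratios of MPG, MRPL28, NPRL3 and SNRNP25. The ratios of POLR3K, RHBDF1, LUC7L and ARHGDIG lie below all of these intervals. Those of AXIN1, TMEM8A and ITFG3 lie below the interval of HBA1 only. These comparisons leave out the counting error of the neighbours. ARHGDIG had a wide interval of its own, from 0.743 to 1.55, which includes the ratios of HBA1 and HBQ1.

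**Figure D3:**
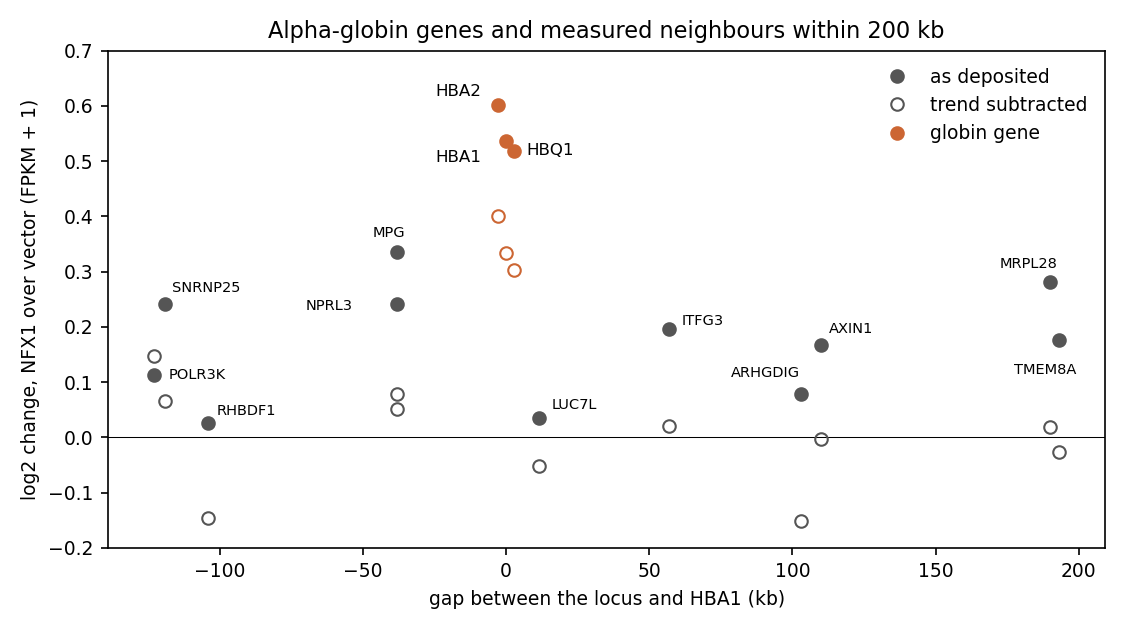
Log2 change (FPKM + 1, NFX1 over vector) of HBA2, HBA1 and HBQ1 (orange) and of the 11 measured genes within 200 kb (grey), against the gap in kb between each locus and HBA1. Filled points are as deposited and open points have the trend with GC content, length and level subtracted; within each form the 3 globin genes lie above the 11 neighbours.

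Around HBB none of 16 other genes within the same distance had 1 FPKM, and 15 were listed at 0 in both libraries. They include the pseudogene HBBP1 and BGLT3, a noncoding RNA of the cluster, and otherwise are olfactory receptor genes, of which OR51B5 had 0.0437 FPKM in the NFX1 library. Around CYGB 10 of 18 genes had at least 1 FPKM, with a median change of 0.09. SNHG16, a small nucleolar RNA host gene, had 17.3 and 19.4 FPKM, RHBDF2 19.6 and 19.8 FPKM, SPHK1, a sphingosine kinase, 44.4 and 50.6 FPKM and SRSF2, a splicing factor, 103 and 115 FPKM in the vector and NFX1 libraries. MXRA7, JMJD6, MFSD11, UBE2O and PRPSAP1 had changes of 0.18, 0.08, 0.10, 0.06 and 0.03, and METTL23, the lower one, -0.07.

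Of 24 red cell markers 5 had at least 1 FPKM and 11 were listed at 0 in both libraries. Those at 0 include ALAS2, the erythroid enzyme of heme synthesis, and AHSP, the chaperone of free alpha chains. SLC4A1, the anion exchanger of the red cell membrane, was listed at 0 in the vector library and had 0.00508 FPKM in the NFX1 library. The 5 markers with at least 1 FPKM all had the lower value in the NFX1 library, as did 5366 of all 11182 genes. Their median change was -0.06, against 0.01 over all 11182 genes. The counting interval of the ratio includes 1 for each of the 5 markers. Those of them with the greatest changes were BPGM, which makes 2,3-bisphosphoglycerate, at 7.56 and 6.65 FPKM, EPB41, a gene of the membrane skeleton, at 3.67 and 3.33 FPKM and ERMAP at 2.23 and 2.101 FPKM. EPOR, the erythropoietin receptor, had 19.2 and 18.8 FPKM and most of the summed level of the 24, which was 35.2 FPKM with the vector and 33.2 FPKM with NFX1.

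Of 12 leukocyte markers CD68, a lysosomal protein of macrophages, at 48.9 and 52.6 FPKM, and LYZ, the lysozyme gene, at 49.2 and 47.9 FPKM, exceeded 1 FPKM. The other leukocyte markers were under 1 FPKM, and PTPRC, the common leukocyte antigen, and CD3E of T cells were among 4 listed at 0 in both libraries. The sum over the 12 was 99.1 FPKM with the vector and 102 FPKM with NFX1, and its part in the globin values was not tested. None of 7 platelet markers did, with sums of 1.400 and 1.37 FPKM, nor did any of 8 endothelial markers, with sums of 0.656 and 0.305 FPKM.

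Of 12 transcription factors that act on globin genes in red cells, 4 had at least 1 FPKM and 4 were listed at 0 in both libraries. GATA1 and NFE2 were among those at 0, KLF1 had 0.0408 FPKM with the vector and 0.0710 FPKM with NFX1, and TAL1 had 0.0705 and 0.0246 FPKM. Of the 4 factors with at least 1 FPKM, 3 had the higher value with NFX1, as did 52% of all 11182 genes, and 1 the lower. The median change of the 4 was 0.26. LDB1, which bridges enhancers and promoters, had 27.6 and 33.4 FPKM, TCF3 25.6 and 30.7 FPKM and ZFPM1, a cofactor of GATA factors, 2.27 and 3.13 FPKM. RUNX1 had 2.47 and 2.30 FPKM. No factor passed 1.5-fold, and with the trend subtracted the median was 0.09.

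Regulators of the switch from fetal to adult globins were mostly expressed, 14 of 19 with at least 1 FPKM. BCL11A, the main repressor of gamma genes in adult red cells, was not among them, at 0.0371 and 0.0797 FPKM. The repressor ZBTB7A had 12.97 and 13.2 FPKM. LIN28B, an RNA-binding protein of fetal cells, had 9.57 and 8.16 FPKM and IGF2BP1, another, 32.0 and 31.2 FPKM. Of the 14, 10 were lower in the NFX1 library, as were 5366 of all 11182 genes, and 4 were higher. The median change of the 14 was -0.05, and none passed 1.5-fold. MBD2, which binds methylated DNA, had the greatest change at -0.23, followed by LIN28B at -0.21 and HBS1L, whose neighbourhood holds a known fetal hemoglobin locus, at -0.20. ATRX, a chromatin remodeller needed for alpha-globin expression in red cells, had 2.38 and 2.22 FPKM.

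ALAS1, the housekeeping form of the first enzyme of heme synthesis, had 50.6 FPKM with the vector and 58.2 FPKM with NFX1, whereas the erythroid ALAS2 was listed at 0. Of 18 genes of heme synthesis and transport 15 had at least 1 FPKM. Of these, 8 were higher with NFX1, as were 52% of all 11182 genes, and 7 lower. The median change of the 15 was 0.04, and none passed 1.5-fold. The mitochondrial carrier SLC25A39 had 107 and 130 FPKM and the heme exporter FLVCR1 6.74 and 5.48 FPKM. SLC25A38, the mitochondrial glycine carrier, was listed at 0 in both libraries.

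Of 10 genes that scavenge or break down hemoglobin and heme, 7 had at least 1 FPKM. Of these, 4 were higher with NFX1, as were 52% of all 11182 genes, and 3 lower. The median change of the 7 was 0.03. HMOX1, the inducible heme oxygenase, had 225 and 221 FPKM, HMOX2, the constitutive one, 30.3 and 36.1 FPKM, and the heme transporter SLC48A1 17.3 and 20.6 FPKM. BLVRB, a biliverdin reductase, had 178 and 206 FPKM. HP, the haptoglobin gene, was listed at 0 in both libraries, and HPX, the hemopexin gene, had 1.76 and 1.69 FPKM. Reductases that return globin iron to its oxygen-binding form were abundant: CYB5R3 had 99.5 and 114 FPKM, POR 98.7 and 111 FPKM and CYB5R1 44.4 and 48.7 FPKM. The list of 7 such genes also holds CYB5A and CYB5B, which encode cytochromes b5 and not reductases. Of the 7, 6 had at least 1 FPKM. Of these, 3 were higher with NFX1, as were 52% of all 11182 genes, and 3 lower, with a median change of 0.05.

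**Figure D4:**
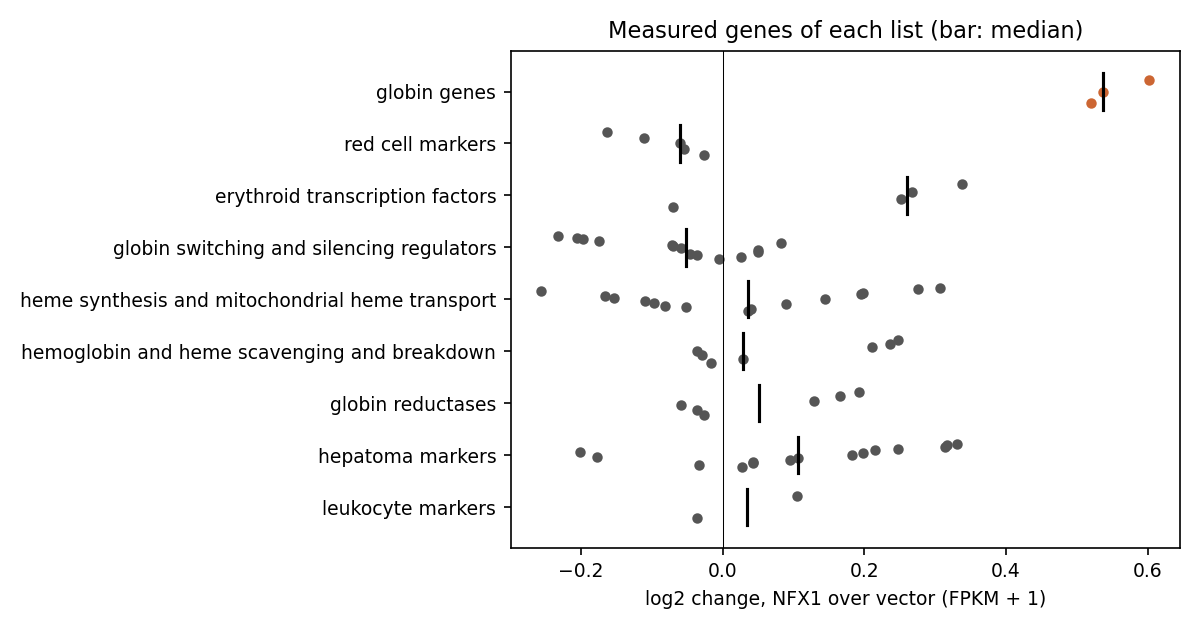
Log2 change (FPKM + 1, NFX1 over vector) of the genes with at least 1 FPKM in a library, by list; each point is a gene and each bar the median. The 3 globin genes lie at 0.52 to 0.60, and the medians of the other lists plotted between -0.06 and 0.26; lists with fewer than 2 such genes are left out, among them the stellate cell and fibroblast markers (1 such gene, NGFR, at -0.13).

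Genes with the most similar values over these 2 libraries were found by the distance of log2(FPKM + 1). Nearest to HBA1 were MUC3A (distance 0.08), ADCK3 (0.14) and KAZALD1 (0.15). Nearest to HBA2 were METTL12 (0.05), TCEB3-AS1 (0.06) and RAC3 (0.13), and nearest to HBQ1 were ACADS (0.05), RAD9A (0.06) and PITX1 (0.07). With 2 libraries this says only that levels and ratios were close.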

How the data were processed

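The submitters' processing notes name hg19 as the build, Cufflinks 2.2.1, and TopHat2 2.1.0; annotation, settings and library type are not given in the sources used here. Per the file headers, the authors' table holds FPKM of each library and, for the comparison, a log2 fold change, a score (the test statistic), a p-value and a q-value. FPKM is inflated for short transcripts by an effective length, which bears on globin genes. Groups came from the genotype labels. Of 28658 rows, 1651 had no symbol and 492 several; for a repeated symbol the row of highest mean FPKM was kept. Starts were converted to count from 1. Genes with at least 1 FPKM in a library (11182) were compared at 1.5-fold on the log2(FPKM + 1) scale. No p-value was computed, since each group has 1 library.

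The table has no counts, so depth was estimated from low values. Ratios of low values fell within 0.005 (log2) of ratios of whole fragments for 39.5% of 4590 genes, against a median of 5.80% for shifted steps, with 1 NFX1 fragment worth 0.870 of 1 vector fragment. The FPKM of 1 fragment was then fitted against the length of RefSeq-matched GENCODE transcripts for 57 genes of 450 to 1100 bp with 1 transcript (median deviation 10.4%); CYGB lies outside that range. Intervals are Clopper-Pearson for ratios and Poisson for levels. PCR copies are not independent, so they cover counting error only. For the trend, cubic splines were fitted to genes that differed by less than 2-fold. On simulated libraries, 100% of 200 genes planted 3-fold up or down passed 1.5-fold, and 94.5% of the planted ratios lay inside their interval. The planted 3-fold exceeds the ratios of HBA1, HBA2 and HBQ1, so this does not show how smaller differences fare. Counts were drawn as Poisson from the same form of length model that was then fitted. The coverage therefore leaves out deviation from that model in the real libraries.

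The globin genes, the lists and the limit of 1.5-fold were chosen with earlier results of these data known. The rule named the 10 globin genes, NFX1, the 3 greatest changes of each list, defining markers near 0, neighbours within 200 kb and the 3 nearest genes of each expressed globin gene. Further list members, HBM, ALB, SERPINA1 and beta-cluster neighbours were named after their values were seen. Some list members that the rule names are not reported here. Computations used scipy 1.17.1, numpy 2.4.6, pandas 2.3.3 and matplotlib 3.10.9 under Python 3.11.15.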

Additional observations from a re-analysis of the deposited data

How the results depend on the processing

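HBA1, HBA2 and HBQ1 stayed higher in the NFX1 library under all 8 alternatives to pseudocount, filter, scaling, row choice and trend. Only the scalings and the trend could have reversed this direction. A pseudocount cannot change the sign, and the filters and row choice left the values of these genes unchanged. The changes were 0.33 to 0.58 for HBA1, 0.35 to 0.72 for HBA2, 0.30 to 0.57 for HBQ1 and 0.39 to 0.63 for HBA1 and HBA2 summed. The count of globin genes at least 1.5-fold higher went from 1 to 0 with a pseudocount of 5, with libraries rescaled to equal sums of FPKM (HBA2 at 0.54), with the trend subtracted and with a limit of 2-fold. Of all genes, 47 were at least 1.5-fold higher and 24 lower. The numbers were 120 and 87 with a pseudocount of 0.1, 9 and 4 with a pseudocount of 5, 15 and 8 with at least 5 FPKM, and 12 and 4 with a limit of 2-fold. Equal sums gave 35 higher and 37 lower, and subtraction of the trend 27 higher and 33 lower, so with these settings more genes were lower than higher. Smaller pseudocounts enlarge changes of low genes by construction: with 0.1, HBZ went from 0.38 to 2.01 and HBG2 from 0.26 to 1.11, on about 6 and 4 fragments in the NFX1 library. For the scalings and the trend the cause was not tested. No replicate could be left out, and no paired analysis was possible because each group has 1 library. Depth limits HBB, HBG2, HBZ and CYGB, whose differences rest on few fragments.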
